A study of Rattus norvegicus with 5 samples.

Results

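Crot, Abcb4, Abcb1b and Abcb1a lie next to each other on rat chromosome 4, in that order, and their transcripts were measured in the livers of the PD rat strain and of a congenic strain derived from it. These 4 genes, of 7589 genes measured, were selected on the array values themselves, as adjacent genes whose levels differed between the strains in the same direction. That direction is a property of the choice, and their strain differences are described here without a test. In the gene order of the RefSeq assembly GRCr8 no other protein-coding gene lies among them. Cd36 lies on the Crot side, with 28 protein-coding genes in between, so the cluster shares a chromosome region with Cd36 and is not its immediate neighbour.

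Both groups were 4-month-old males fed standard chow. PD (polydactylous rat) is the progenitor. The congenic strain, PD.SHR4 in the sample labels and PD.SHR4a in the series text, has the PD genome with a chromosome 4 segment from SHR, the spontaneously hypertensive rat. Where that segment ends was not given in the sources used here, and any effect of a congenic segment belongs to the whole segment and not to Cd36 alone. For each strain the labelled cDNA of 8 rats was pooled and hybridised to Affymetrix rat exon arrays, 3 for PD and 2 for PD.SHR4. Since the labels do not say that the arrays of a strain came from different animals, errors and p-values cover the spread between arrays only. This spread may be technical, and variation between rats was not measured.

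Crot encodes carnitine octanoyltransferase, the peroxisomal enzyme that passes medium-chain acyl groups, left when peroxisomes shorten long chains, to carnitine for transport to mitochondria. The other genes encode ATP-binding cassette transporters. Abcb4 (formerly Mdr2) moves phosphatidylcholine into the canalicular leaflet of the hepatocyte, from which bile takes it up. Abcb1a and Abcb1b are the paired rodent forms of P-glycoprotein, a drug efflux pump for which humans have a single gene, ABCB1. In human cells the xenobiotic receptor PXR raises ABCB1, and in mouse liver agonists of PPAR-alpha, a fatty acid receptor, raise Abcb4 and Crot.

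The sequences just before the gene starts are shown because the genes were picked for a shared direction. All 4 genes had an entry in RefSeq's promoter windows of build GRCr8, and the 250 bases before each start are given 5′ to 3′ on the strand of the gene, with motif matches in capitals. Crot is at chr4:26052874-26053123 on the plus strand. The transporter genes run the other way, on the minus strand, Abcb4 at chr4:26164146-26164395, Abcb1b at chr4:26280030-26280279 and Abcb1a at chr4:26397649-26397898. Crot and Abcb4 therefore point towards each other.
Crot: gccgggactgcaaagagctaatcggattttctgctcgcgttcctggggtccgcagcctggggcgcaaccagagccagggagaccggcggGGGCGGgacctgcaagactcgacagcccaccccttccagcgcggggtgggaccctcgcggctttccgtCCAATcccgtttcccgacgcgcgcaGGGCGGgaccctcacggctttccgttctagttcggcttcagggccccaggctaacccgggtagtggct
Abcb4: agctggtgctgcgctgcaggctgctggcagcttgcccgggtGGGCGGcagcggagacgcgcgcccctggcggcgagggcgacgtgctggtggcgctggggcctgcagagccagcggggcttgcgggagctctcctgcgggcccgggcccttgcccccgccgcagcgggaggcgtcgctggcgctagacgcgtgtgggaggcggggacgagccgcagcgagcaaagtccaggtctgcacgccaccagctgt
Abcb1b: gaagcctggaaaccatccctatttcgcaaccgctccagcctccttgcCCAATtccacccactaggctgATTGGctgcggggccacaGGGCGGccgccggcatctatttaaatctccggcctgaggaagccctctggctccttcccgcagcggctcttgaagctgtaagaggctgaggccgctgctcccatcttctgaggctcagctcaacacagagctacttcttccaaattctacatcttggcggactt
Abcb1a: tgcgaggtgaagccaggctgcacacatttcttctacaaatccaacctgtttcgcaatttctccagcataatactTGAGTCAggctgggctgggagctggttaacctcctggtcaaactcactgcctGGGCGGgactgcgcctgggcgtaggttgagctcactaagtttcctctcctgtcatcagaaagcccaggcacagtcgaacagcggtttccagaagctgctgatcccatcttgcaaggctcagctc

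Each of the 4 windows held the GC box GGGCGG, which 30.5% of all 33469 RefSeq promoter windows hold on either strand. Crot had 2 matches, the first bases of which lay 161 and 68 bases before the start, and the transporter genes had 1 each, at 209 bases in Abcb4, 164 in Abcb1b and 124 in Abcb1a. The share of G and C was 76% in Abcb4 and 68% in Crot, above the upper quartile of 60% over all windows. Abcb1b at 58% and Abcb1a at 54% lay between the median of 51.2% and that quartile. A CCAAT box (CCAAT) was found once in Crot and in 2 places in Abcb1b, once on each strand, and in 34.0% of all windows. The AP-1 site TGACTCA was found on the minus strand of Abcb1a alone among the 4, and in 4.05% of all windows. No window held the TATA box TATAAA (12.9% of all windows), the nuclear receptor core motif AGGTCA (14.1%), the E-box CACGTG (5.59%) or the D-box TTATGTAA (0.828%), which says only that these letters are not in these windows. All motif searches covered both strands, while runs of bases shared by a pair of windows were sought on the printed strand only. No 2 of these motifs overlapped in the windows. The longest run of bases that any pair of windows shared was 11 bases, aggctcagctc, in the P-glycoprotein genes Abcb1b and Abcb1a, 54 and 11 bases before their starts. Every other pair shared at most 9.

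Crot measured 9.02, 9.09 and 9.52 on the PD arrays and 10.14 and 9.93 on the PD.SHR4 arrays, as log2 expression values of its probe set 7261367. Both congenic arrays lay above every PD array, with a gap of 0.40 between the nearest arrays of the strains. The mean was 9.21 ± 0.27 (SD, n = 3) in PD and 10.03 ± 0.15 (SD, n = 2) in PD.SHR4. The log2 difference was therefore 0.82 ± 0.19 (SE of limma's fit), or 1.77-fold, the third largest of the cluster.

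Abcb4, the phosphatidylcholine transporter, measured 8.06, 8.24 and 8.38 in PD and 8.68 and 8.91 in PD.SHR4 (probe set 7250417). The strains did not overlap, but the gap of 0.30 was the smallest of the cluster and close to the range of 0.32 among the PD arrays. From 8.23 ± 0.16 (SD, n = 3) in PD the mean was 8.80 ± 0.16 (SD, n = 2) in PD.SHR4. The log2 difference of 0.57 ± 0.15 (SE), or 1.48-fold, was the smallest of the 4.

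Abcb1b measured 6.75, 6.53 and 5.81 in PD and 7.12 and 8.08 in PD.SHR4 (probe set 7250403). Its arrays spread the most: PD array 3 was the low one, PD.SHR4 array 2 the high one, and the ranges of 0.93 in PD and 0.97 in PD.SHR4 were each more than the gap of 0.37 between the strains. The means were 6.36 ± 0.49 (SD, n = 3) and 7.60 ± 0.68 (SD, n = 2), a log2 difference of 1.24 ± 0.38 (SE), or 2.36-fold. Without PD.SHR4 array 2 the log2 difference was 0.76, so the size of this value, though not its sign, rests on that array.

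Abcb1a, the other P-glycoprotein gene, measured 5.09, 5.37 and 4.92 in PD and 6.12 and 6.09 in PD.SHR4 (probe set 7250393). The congenic arrays were within 0.035 of each other, and the gap of 0.72 to the highest PD array was the largest of the cluster. The means were 5.13 ± 0.23 (SD, n = 3) and 6.11 ± 0.025 (SD, n = 2). The log2 difference was 0.98 ± 0.16 (SE), or 1.97-fold.

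**Figure D1:**
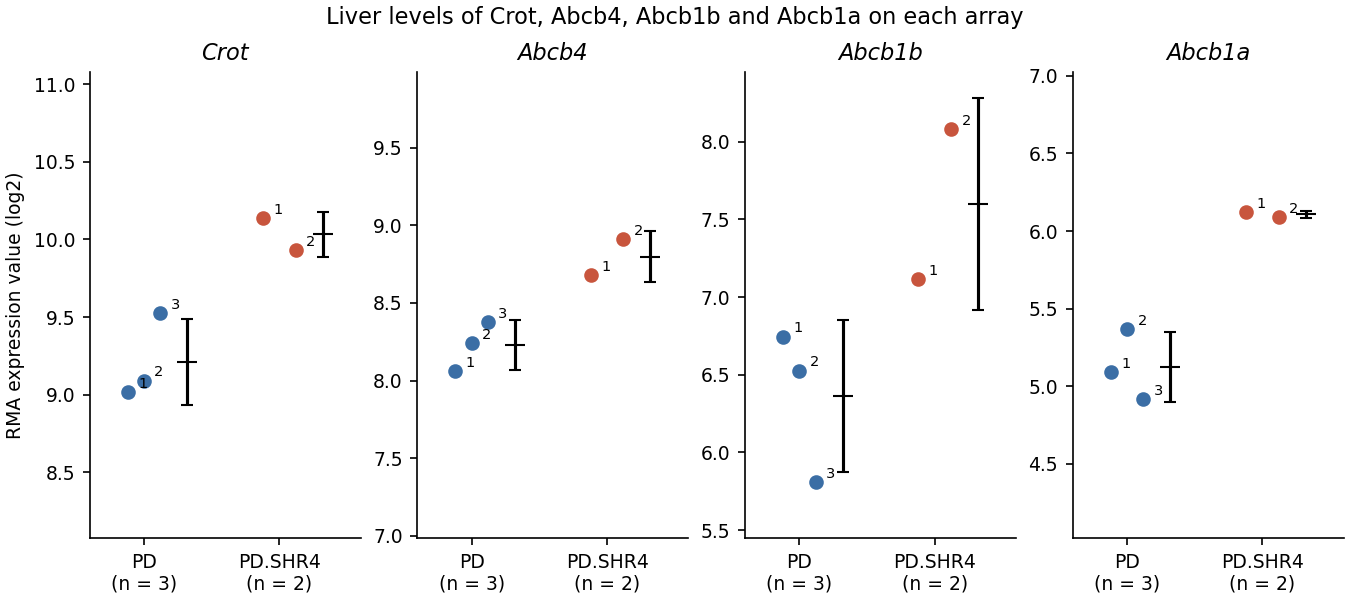
RMA expression values (log2, vertical axes of equal length) of the 4 genes on each array, with the array number beside each point and the strain mean ± SD as black bars (n = 3 for PD, n = 2 for PD.SHR4). All congenic points lie above all PD points, and Abcb1b shows the widest spread within each strain.

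In all 4 genes the strains did not overlap and the congenic arrays were the higher. Over all 8797 probe sets, 14.8% showed this too, and since the rule used this contrast nothing is read from the count. All 4 genes exceeded the arrays' lower quartiles (2.84 to 2.93), and Abcb1a was the only one below an array's median (5.21 to 5.38), which it was on each PD array and on neither congenic array.

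The spread of the arrays within a strain was not used in choosing the genes, and it differed among them. Abcb1b had a residual SD of 0.56, larger than that of 96.1% of all probe sets, for which the median was 0.17. Crot at 0.24, Abcb1a at 0.19 and Abcb4 at 0.16 lay nearer the middle, above 69.4%, 53.8% and 45.8% of probe sets. As a set, the 4 genes also did not follow each other from array to array within a strain. Crot and Abcb4 rose in the same order over the PD arrays but went opposite ways between the congenic arrays. On PD array 3 Crot and Abcb4 were at their PD highest, 0.31 and 0.15 above the PD mean, whereas both P-glycoprotein genes were at their PD lowest, Abcb1b 0.55 and Abcb1a 0.21 under it (deviations of -0.55 and -0.21). Between the congenic arrays, array 2 exceeded array 1 by 0.97 in Abcb1b and by 0.23 in Abcb4, and array 1 exceeded array 2 by 0.21 in Crot and by 0.035 in Abcb1a. Transcripts of the transporter genes are similar in sequence, and binding of transcripts to the probes of a paralogue was not tested. These deviations between arrays of pooled cDNA carry no test.

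Over the 5 arrays, the pattern nearest to each gene was sought by the root mean square difference (RMS) of log2 values after each gene's PD mean was subtracted, among 7588 other genes. This measure includes the strain difference, so it describes the arrays and carries no test. Nearest to Abcb4 was Cpt2, the inner-membrane carnitine palmitoyltransferase of mitochondria, at an RMS of 0.040, followed by the chaperonin subunit Cct2 (0.047) and the potassium channel gene Kcnj12 (0.062). Cpt2 measured 8.66, 8.73 and 8.92 in PD and 9.20 and 9.49 in PD.SHR4. Nearest to Abcb1a was Pctp, a transfer protein for phosphatidylcholine, at 0.065, then the protein kinase gene Prkd3 (0.078) and the adducin gene Add1 (0.11). Pctp measured 7.09, 7.42 and 6.98 in PD and 8.06 and 8.04 in PD.SHR4, with PD array 2 the highest PD array and array 3 the lowest, as in Abcb1a. Crot was nearest to the claudin gene Cldn14 (0.11), Mrgpre (0.12) and Sorbs3 (0.13). The patterns nearest to Abcb1b were those of Zdhhc23, Or2y1h and Or52r1, at 0.27, 0.28 and 0.32, and Or52r1 was dim in PD (1.55 to 1.69). The RMS was not scaled to a gene's own spread, which was widest in Abcb1b. Its distances therefore cannot be compared with those of the other members. Ranked in the same way, the members were not each other's nearest genes. The best ranks were Abcb1a as 18th from Abcb1b, at an RMS of 0.43, and Abcb4 as 54th from Crot, at 0.23. Taken the other way, Abcb1b was 476th from Abcb1a and Crot was 492nd from Abcb4. The lowest ranks were those of Abcb1b, 5509th from Crot and 6691st from Abcb4.

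**Figure D2:**
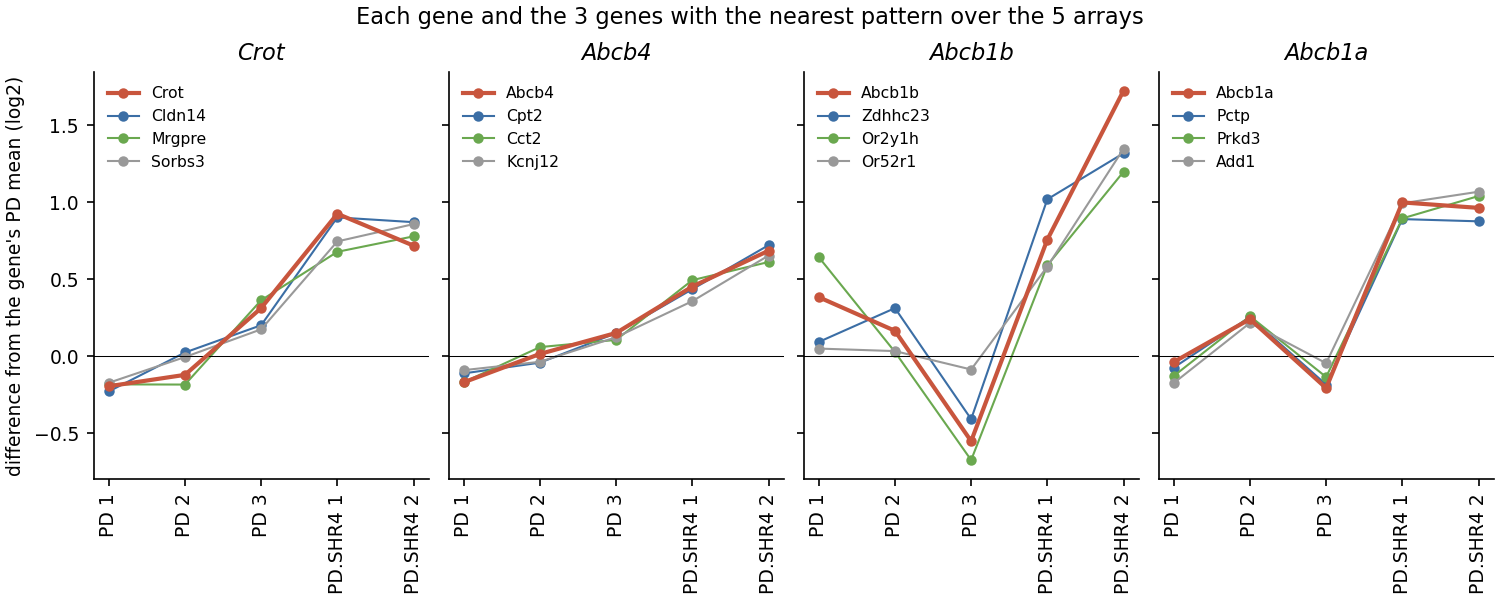
Difference of each array from the gene's own PD mean (log2) for each of the 4 genes (red) and the 3 genes with the nearest pattern over the 5 arrays. Lines only join the values of 1 gene and imply no order of arrays. Abcb4 and Cpt2 nearly coincide, at an RMS of 0.040, whereas the genes nearest to Abcb1b, the member with the widest spread, are 0.27 to 0.32 away.

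The nearest measured gene on each side of the cluster had a log2 difference near 0. Dmtf1, a Myb-like transcription factor gene and the nearest measured gene on the Crot side, measured 6.31, 6.49 and 6.36 in PD and 6.44 and 6.45 in PD.SHR4, a log2 difference of 0.06 ± 0.12 (SE; adjusted p = 0.896). Between it and Crot lies 1 protein-coding gene not analysed here. On the Abcb1a side, beyond 18 protein-coding genes not analysed here, came the Wnt receptor gene Fzd1 at -0.11 ± 0.23 (SE; adjusted p = 0.907). In both of these genes the arrays of the strains overlapped. Next in order on the Crot side were the axon guidance gene Sema3a (log2 difference -0.02) and Pclo, a presynaptic scaffold (-0.03), both dim, with values of 2.97 or less on every array. On the Abcb1a side they were Cyp51, the lanosterol demethylase of cholesterol synthesis (-1.41 ± 0.29 SE; adjusted p = 0.102), and the mitochondrial transcription factor gene Mterf1 (0.14).

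Of the 15 nearest measured genes on each side, 30 in all, 1 fell and 29 did not pass the test (limma, Benjamini-Hochberg adjusted p under 0.05), while 0.932% of all probe sets passed it in either direction. Their median log2 difference was -0.03, against 0.00020 over all probe sets, and 23 of the 30 lay within 0.3 of 0. Most probe sets lay that near 0 too, the median absolute log2 difference over all of them being 0.16. Of the 30, 21 remained once the dimmest 25% of probe sets were left out. The gene that fell was Pdk4, a pyruvate dehydrogenase kinase and the 14th measured gene beyond Abcb1a, at -1.40 ± 0.18 (SE; adjusted p = 0.0448). It did not pass without PD array 1 (adjusted p = 0.0730), PD array 3 (0.122), PD.SHR4 array 1 (0.294) or PD.SHR4 array 2 (0.373). Only Hgf (0.58 ± 0.20 SE; adjusted p = 0.287), the hepatocyte growth factor gene, chosen here after its value was seen, was higher in the congenic strain by as much as Abcb4. It is 1 of 5 measured genes between Cd36 and the cluster, and the other 4 had log2 differences from -0.06 to 0.06. Of these 4, Cacna2d1, Pclo and Sema3a were dim, with values of 2.97 or less on every array, so little can be read from their differences. None of the 5 passed in limma. An unadjusted p under 0.05 was found for 1, beside 1211 of all 8797 probe sets, and 1 passed with array weights, beside 819. In 11 of the 30 neighbours the strains did not overlap, 3 with PD.SHR4 higher and 8 with it lower, beside 31.9% of all probe sets.

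**Figure D3:**
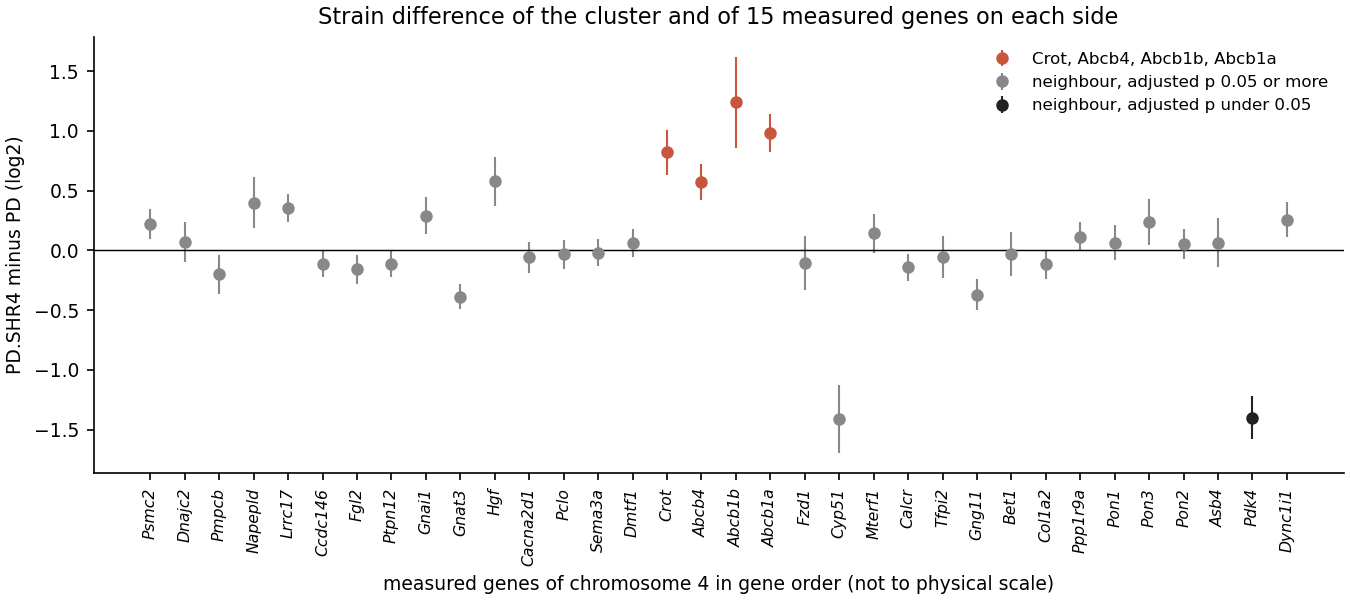
Log2 difference between strains (PD.SHR4 minus PD, points with ± 1 SE) of the 4 genes (red) and of 15 measured genes on each side, in gene order and not to physical scale. The cluster lies at 0.57 to 1.24, most neighbours lie near 0, and Cyp51 and Pdk4 lie near -1.4. Most probe sets of the arrays also lay near 0 (median absolute log2 difference 0.16).

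The labels were checked against Cd36, the membrane carrier of long-chain fatty acids in which SHR is deficient. The probe set it shares with its paralogue Cd36l1 measured 7.35, 7.83 and 7.93 in PD and 4.18 and 4.85 in PD.SHR4, the opposite direction to the cluster. The log2 difference was -3.19 ± 0.26 (SE; adjusted p = 0.0149), and the adjusted p was 0.0516 without PD array 3 and 0.105 or 0.130 without PD.SHR4 array 1 or 2. Hepatocyte markers had a median difference of 0.050 over 10 measured of 12, 8 of them above 0, and a summed level on the linear scale of 59592 to 62482 in PD and 61638 to 62113 in PD.SHR4. Macrophage and Kupffer cell markers had 7 of 8 values below 0 and a median of -0.47. Their summed level was 5456 to 6199 in PD and 4575 to 4726 in PD.SHR4. Lymphocyte markers had 8 of 10 values below 0 and a median of -0.49. Their summed level was 430.2 to 526 in PD and 305 to 318 in PD.SHR4. Stellate cell markers had 5 of 8 below 0 and a median of -0.28, with sums of 939 to 1158 and 839.5 to 916. Cholangiocyte markers had 3 of 4 values above 0 and a median of 0.20, with sums of 249.6 to 341 and 298.5 to 298.6. Endothelial markers had 2 of 2 above 0 and a median of 0.11, with sums of 190.0 to 221 and 211 to 213. No single marker of the 42 measured in these 6 lists passed in limma. An unadjusted p under 0.05 was found for 16, among them 6 macrophage and 6 lymphocyte markers, beside 1211 of all 8797 probe sets. With array weights 6 macrophage and 6 lymphocyte markers fell, beside 486 of all 8797 probe sets. Of the 42, 1 lymphocyte and 1 stellate cell marker was dimmer than the lower quartile on all 5 arrays. The part of these other cell types in the cluster's difference was not tested. In bulk liver, fewer cells of a type and less RNA per cell cannot be told apart.

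Around Crot, the carnitine system was measured by 9 of 12 listed genes, of which 7 had values above 0 and none passed in limma. An unadjusted p under 0.05 was found for 2 of the 9, beside 1211 of all 8797 probe sets. The median log2 difference of the 9 was 0.28. Cpt1a, which admits long-chain acyl groups to mitochondria, had the largest, measuring 9.31, 8.37 and 8.63 in PD and 10.10 and 10.18 in PD.SHR4, without overlap (1.37 ± 0.28 SE; adjusted p = 0.103). Cpt2, the gene nearest in pattern to Abcb4, was at 0.58 ± 0.15 (SE; adjusted p = 0.171). The carnitine-acylcarnitine carrier Slc25a20 was at 0.35 (adjusted p = 0.382) and the muscle-type Cpt1b at 0.28 (adjusted p = 0.454). Of these 9, 1 rose without PD array 1, and 1 with the replicate block or with array weights. Under these 3 settings 11, 64 and 333 of all 8797 probe sets rose.

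Peroxisomal oxidation up to Crot, with importers and other peroxisomal genes, was measured by 15 of 23 listed genes. Of the 15 measured, 10 had values above 0, with a median of 0.39. Of these, 1 rose, 0 fell and 14 did not pass. Abcd2, a peroxisomal importer of very long-chain acyl-CoA, rose from 2.38, 2.42 and 2.63 in PD to 4.38 and 4.41 in PD.SHR4 (1.92 ± 0.13 SE; adjusted p = 0.00755), and in PD it was dimmer than the lower quartile of each array. Without PD.SHR4 array 1 or 2 its adjusted p was 0.107 or 0.161, the single congenic array being assumed to vary like PD. The bifunctional enzyme gene Ehhadh was at 1.17 ± 0.18 (SE; adjusted p = 0.0606), the dienoyl-CoA isomerase Ech1 at 1.21 ± 0.34 (adjusted p = 0.198) and the very long-chain acyl-CoA synthetase Slc27a2 at 0.43 ± 0.12 (adjusted p = 0.188).

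The other ABCB genes did not share one direction. Of 6 measured of 8 listed, 3 had values above 0 and 3 below, with a median of 0.0018. None passed in limma and 2 had an unadjusted p under 0.05, beside 1211 of all 8797 probe sets. With array weights 2 fell, beside 486 of all 8797 probe sets. Tap1 and Tap2, which together carry peptides to MHC class I molecules, were lower on both congenic arrays, at -1.03 ± 0.24 (SE; adjusted p = 0.132) and -0.65 ± 0.17 (adjusted p = 0.168). The mitochondrial Abcb10 was at 0.19 and the lysosomal peptide transporter Abcb9 at -0.17. The sign of their median changed with the setting, from -0.04 without PD array 1 to 0.055 after centring each array on its median.

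Other drug efflux pumps were measured by 5 of 9 listed genes. In each of the 5 the strains overlapped, and the median was -0.06. None passed in limma, and 0 had an unadjusted p under 0.05. Over all probe sets, 31.9% did not overlap. The listed Abcc1 was left out because its probe set is shared with Abcc1-ps1. That probe set was lower in PD.SHR4 without overlap (log2 difference -0.17). Abcg2, the breast cancer resistance protein, ranged from 3.34 to 4.45 in PD and from 3.35 to 3.42 in PD.SHR4 (-0.48 ± 0.32 SE; adjusted p = 0.614). The size of that value rests on single PD arrays, being -0.18 without PD array 2 and -0.74 without PD array 1. Abcc3 was at -0.15 ± 0.13 (SE), Abcc6 at -0.06 ± 0.12 and Abcc5 at 0.05 ± 0.12. A difference from the P-glycoprotein genes was not tested.

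Phosphatidylcholine supply and bile lipid export, the pathway of Abcb4, was measured by 13 of 15 listed genes, 8 with values above 0 and 5 below, and a median of 0.066. Abcg5, which with Abcg8 moves sterols into bile, rose from 5.47, 5.93 and 5.57 in PD to 8.12 and 8.31 in PD.SHR4 (2.56 ± 0.17 SE, 5.89-fold; adjusted p = 0.00755). The other 12 did not pass. Abcg8 was at 0.96 ± 0.14 (SE; adjusted p = 0.0514) and Pctp at 0.88 ± 0.16 (adjusted p = 0.0811). Choline kinase Chka, at the head of phosphatidylcholine synthesis, was at -0.95 ± 0.24 (adjusted p = 0.168). Without PD.SHR4 array 1 or 2 the adjusted p of Abcg5 was 0.103 or 0.154.

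Among 12 nuclear receptors and coregulators listed as possible regulators of such genes, all measured, 1 rose, 0 fell and 11 did not pass, with a median of 0.17. Whether they act on the cluster was not tested. Nr1i3, the xenobiotic receptor CAR, rose from 5.93, 6.57 and 6.03 to 7.91 and 8.12 (1.84 ± 0.22 SE; adjusted p = 0.0392). It did not pass without PD array 1 (adjusted p = 0.0771), PD array 3 (0.117), PD.SHR4 array 1 (0.248) or PD.SHR4 array 2 (0.373). Ppara measured 7.23, 7.71 and 6.70 in PD and 8.98 and 9.42 in PD.SHR4 (1.99 ± 0.31 SE; adjusted p = 0.0606). Nr1i2, the receptor PXR, was at 0.70 ± 0.14 (adjusted p = 0.104), and Nr1h4, the bile acid receptor FXR, at -0.32 ± 0.14 (adjusted p = 0.426).

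Genes induced through CAR and PXR had the highest list median, 1.37 over 8 measured of 17 listed, with 7 values above 0. The listed Cyp2b1, Cyp2b2, Cyp2b3, Alas1 and Ugt1a1 were not among the 8. The paralogues Cyp3a2, Cyp3a18 and Cyp3a23-3a1 were. Of the 8, 2 rose and 6 did not pass. Por, the reductase that feeds electrons to cytochromes P450, rose from 8.49, 8.41 and 8.70 to 10.33 and 10.44 (1.85 ± 0.14 SE, 3.60-fold; adjusted p = 0.0100). The retinal dehydrogenase Aldh1a1 rose from 8.24, 8.72 and 8.27 to 10.05 and 10.34 (1.78 ± 0.19 SE, 3.45-fold; adjusted p = 0.0344). Without PD.SHR4 array 1 or 2 the adjusted p was 0.111 or 0.181 for Por and 0.236 or 0.309 for Aldh1a1, which also did not pass without PD array 1 (0.0730) or PD array 3 (0.101). Cyp3a2, a steroid and drug hydroxylase, was at 1.74 ± 0.29 (SE; adjusted p = 0.0671) and the carboxylesterase Ces2c at 1.22 ± 0.21 (adjusted p = 0.0719). Over all 7 lists, 5 of 68 measured genes rose and 0 fell, beside 0.273% of probe sets that rose and 0.659% that fell across the arrays. The lists were drawn up with earlier results of these arrays known, so the count is not independent support for a direction.

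**Figure D4:**
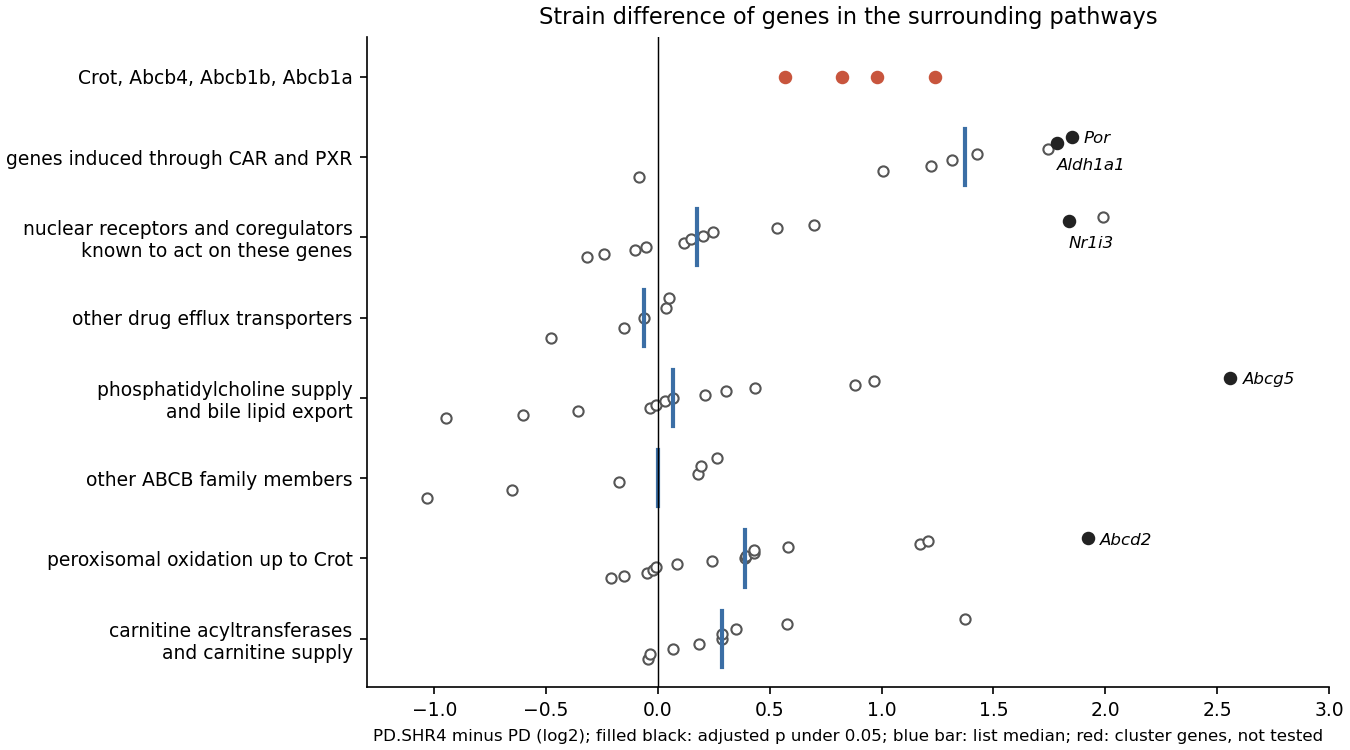
Log2 difference between strains (PD.SHR4 minus PD) of every measured gene in the 7 lists, with genes past the test in filled black and named, list medians as blue bars and the 4 cluster genes, not tested, in red. The list of CAR and PXR target genes has its median at 1.37 and the other medians lie between -0.06 and 0.39.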

How the data were processed

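Liver RNA was measured on 3 PD and 2 PD.SHR4 arrays. The deposited table holds log2 expression values for 8797 core-gene probe sets, which the authors computed with RMA in Expression Console, per the labels. Partek is also named, per the submitters' processing notes. RMA removes background, applies quantile normalisation and condenses each gene's probes to 1 value. Versions and build were not given in the sources used here. Precision is limited by the number of arrays.

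Symbols came from GEO's platform annotation. It gave 1 symbol for 7603 probe sets, several for 409 and none for 785, and 7584 matched the RefSeq gene table (GRCr8), used for symbols and gene order. The brightest probe set stood for a gene with several (14 genes). Probe sets with several symbols were left out of the lists and of the gene order, while Cd36 was read from such a probe set. The strain comparison used limma 3.58.1 under R 4.3.3 (eBayes after lmFit, two-sided, PD.SHR4 minus PD, without covariates), adjusted over all probe sets (Benjamini-Hochberg, threshold 0.05) and tested on simulated data. This passed 82 probe sets, 24 higher and 58 lower in PD.SHR4 (47 and 65 after a further quantile normalisation, 41 and 59 after median centring); 1211 had an unadjusted p under 0.05.

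Members and lists were chosen with earlier results of these data known. Named were the 4 members, Cd36, in each list every gene past the threshold or up to 4 by smallest p, the 3 nearest measured neighbours on each side and those past the threshold, and the 3 nearest patterns per member. Motifs were chosen after the values were seen. Alternatives were leaving out each array, a replicate block, other normalisation, weights, shrinkage, dim filter, neighbourhood size and measure of likeness. No check of probe sequences was made, so whether sequence differences between the strains alter binding to the probes was not tested.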

Additional observations from a re-analysis of the deposited data

How the results depend on the processing

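The 4 cluster genes were higher in PD.SHR4 in all 9 alternatives run for each. Leaving out 1 array gave log2 differences of 0.72 to 0.98 for Crot, 0.45 to 0.69 for Abcb4, 0.76 to 1.72 for Abcb1b and 0.88 to 1.10 for Abcb1a. With arrays that did not overlap, neither leaving out an array nor array weights could change the sign, for which the genes were chosen. Under the other 4 alternatives the differences were 0.58 to 0.98, 0.46 to 0.65, 0.97 to 1.66 and 0.88 to 1.14. Array weights lay at 1 end of each range and the replicate block at the other. For each gene the block gave the same difference as leaving out PD array 3, so it is no separate check. The number of changed probe sets, 82, was 0 to 55 without 1 array, 163 with the replicate block, 819 with array weights, 151 with an intensity trend, 2 without shrinkage and 149 without the dimmest 25%. The 5 changed list genes became 0 to 5 without 1 array, 12 with the block, 10 after quantile normalisation, median centring or the dim filter, 22 with array weights (19 higher, 3 lower), 9 with the trend and 0 without shrinkage. The 1 changed neighbour became 0 or 1 without 1 array, 2 with the block, 4 with array weights, 0 without shrinkage and 0 among the 8 nearest on each side. The weights rated PD array 3 at 4.26 and PD array 2 at 0.304. Arrays share only a number across strains (correlation of same-numbered deviations 0.050 and 0.082), so the block is no pairing. By mean absolute difference, the same 3 nearest patterns were found for Crot, Abcb4 and Abcb1a and 2 of 3 for Abcb1b. Over 36 other named genes and 431 gene-by-alternative fits, 28 lost their call, 41 gained one and 0 called values changed sign. Signal near background limits dim genes such as Pclo, Sema3a and, in PD, Abcd2.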

Other observations

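Further genes of the CAR and PXR list, chosen after their values were seen, lay above 0 without passing the test. The P450 genes Cyp3a18 and Cyp3a23-3a1 measured log2 differences of 1.43 ± 0.48 (SE; adjusted p = 0.270) and 1.01 ± 0.22 (SE; adjusted p = 0.124), and the organic anion uptake carrier Slco1a4 1.31 ± 0.40 (SE; adjusted p = 0.225). Close paralogues of the Cyp3a family may bind each other's probes, which was not tested. The glucuronosyltransferase Ugt2b1 was at -0.09. In 7 of the 8 measured genes of that list the strains did not overlap, with PD.SHR4 higher, which 14.8% of all probe sets showed. The list was drawn up with earlier results of these arrays known, so nothing is read from this count.

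In the peroxisomal list, genes that the naming rule left out were near or above 0. Hacl1, a lyase of branched-chain alpha-oxidation, was at 0.58, the fatty acyl-CoA importer Abcd3 at 0.43 and the multifunctional enzyme gene Hsd17b4 at 0.39, while the racemase Amacr was at -0.21. None passed the test.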
